A study of Mus musculus with 10 samples.

Results

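Immediate early genes are the genes that a cell transcribes first after a growth factor, a mechanical pull or a stress reaches it, without making new protein beforehand. A set of 10 was followed here, chosen by name: the AP-1 subunits Fos, Fosb, Jun and Junb, the transcription factors Egr1, Atf3 and Klf6, the early response genes Ier2 and Ier3, and the phosphatase gene Dusp1. All 10 had at least 1 probe set that maps to a single gene, 15 of the 34945 such probe sets on the array and 10 genes of 18194, and 9 genes were among the 14696 tested. Fosb, with a mean log2 signal of 3.76, lay under the limit of 4.47 below which genes were called dim and was not tested.

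The samples were mouse embryos at 15 days post coitum. There were 5 groups of 2 biological replicates. In ICR, an outbred stock, these were gallbladder of wild type embryos, gallbladder of Sox17+/- embryos, and the cystic duct of wild type embryos. In B6, an inbred strain, they were gallbladder of both genotypes. Sox17 encodes an endodermal transcription factor, and the labels neither describe the altered Sox17 allele nor say whether embryos were pooled. The titles number the samples 1 and 2 in each ICR group and 3 and 4 in each B6 group, and what the numbers mark is not given. No label records handling or the time taken by dissection, so no such measure could be set beside the signals. All levels below are log2 signals after quantile normalization, a 1-unit step is a 2-fold difference, and a called gene is one with a limma p, adjusted by Benjamini-Hochberg over all genes tested, under 0.05.

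The protein products work in layers. Kinase cascades of the MAPK family activate serum response factor and its partners, and CREB-type factors that bind the TGACG motif, and these switch on Fos, Egr1 and Ier2. Fos- and Jun-type proteins pair as AP-1 and drive later genes, while Dusp1 removes phosphate from the MAP kinases and so limits the response. Handling of tissue is known to raise these transcripts, and this is the reason they are watched in dissected organs.

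The sequence before and after the start site was compared for the members, since it holds part of the sites such factors bind. The promoters, 250 bases before to 50 after the start site, come from RefSeq on GRCm38.p6, whose table held 8 of the 10 genes. Shown are those of Fos, Atf3 and Dusp1, which hold TGACG, and of Klf6, the 1 gene called in a comparison below, which does not. Capitals mark TGACG on either strand, its longer palindrome TGACGTCA, which contains it, and TATAAA. Fos lies at chr12:85473640-85473939 on the plus strand, Atf3 at chr1:191183284-191183583 on the minus strand, Dusp1 at chr17:26508423-26508722 on the minus strand and Klf6 at chr13:5861239-5861538 on the plus strand.
Fos: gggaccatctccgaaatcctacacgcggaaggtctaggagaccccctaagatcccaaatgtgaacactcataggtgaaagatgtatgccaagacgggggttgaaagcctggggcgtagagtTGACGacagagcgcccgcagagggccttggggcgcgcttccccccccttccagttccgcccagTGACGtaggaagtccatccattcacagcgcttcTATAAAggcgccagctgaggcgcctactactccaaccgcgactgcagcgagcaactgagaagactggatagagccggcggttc
Atf3: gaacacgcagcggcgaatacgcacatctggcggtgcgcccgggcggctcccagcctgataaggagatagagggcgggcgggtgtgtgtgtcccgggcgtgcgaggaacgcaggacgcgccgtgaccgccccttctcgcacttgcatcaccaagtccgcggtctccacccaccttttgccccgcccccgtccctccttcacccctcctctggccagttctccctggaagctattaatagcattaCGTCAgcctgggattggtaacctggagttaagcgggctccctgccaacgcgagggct
Dusp1: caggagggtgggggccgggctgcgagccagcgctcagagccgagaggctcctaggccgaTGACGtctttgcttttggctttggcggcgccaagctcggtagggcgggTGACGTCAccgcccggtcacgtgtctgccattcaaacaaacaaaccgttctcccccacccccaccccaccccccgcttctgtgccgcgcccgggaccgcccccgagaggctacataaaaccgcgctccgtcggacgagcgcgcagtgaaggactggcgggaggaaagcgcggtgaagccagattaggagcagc
Klf6: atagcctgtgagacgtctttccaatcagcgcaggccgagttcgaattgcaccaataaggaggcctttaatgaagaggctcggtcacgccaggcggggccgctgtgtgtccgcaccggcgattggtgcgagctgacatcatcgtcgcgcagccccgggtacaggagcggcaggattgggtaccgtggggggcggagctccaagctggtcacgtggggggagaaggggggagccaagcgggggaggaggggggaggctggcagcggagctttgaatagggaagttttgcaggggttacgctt
TGACG on either strand was present in 5 of the 8 member promoters (Atf3, Dusp1, Fos, Fosb and Junb), against 20.8% of 32851 promoters of the same length. TGACGTCA was present in Dusp1 only, against 1.79% of all promoters, and TATAAA in Fos and Junb, against 13.6%. The CArG box was found in 0 of the 8 in this window, against 1.63% of all, and TGANTCA, the AP-1 motif, in 0 of the 8, against 7.81%. Egr1 and Ier2 were not among the 8, and sites outside the window were not examined. GGGCGG was present in 7 of the 8, against 35.7%.

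The AP-1 genes differed in how steady they were. Fos, the inducible AP-1 subunit, read 7.90 and 7.24 in ICR wild type gallbladder, 8.53 and 7.81 in ICR Sox17+/- gallbladder, 6.92 and 8.11 in ICR cystic duct, 7.50 and 7.57 in B6 wild type and 7.80 and 7.46 in B6 Sox17+/- gallbladder, each pair in order of its sample numbers. The highest sample was ICR Sox17+/- sample 1 and the lowest was cystic duct sample 1, whose partner was the second highest of all. Jun, its main dimer partner, read 9.52 and 9.39, 9.69 and 9.68, 9.57 and 9.41, 9.45 and 9.52, and 9.74 and 9.80 in the same order of groups. Its 8 gallbladder values spanned 0.41 log2 units, against 1.29 for Fos and a median of 0.53 over all genes tested. Junb, a further partner of Fos, read 5.18 and 5.09, 5.24 and 4.98, 5.39 and 4.27, 4.94 and 4.93, and 5.15 and 5.0, so that only cystic duct sample 2 lay clearly apart. Fosb ran from 3.00 in cystic duct sample 2 to 4.22 in ICR wild type gallbladder sample 1.

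Jun had a second probe set that did not behave like the first. On 1417409_at it read 9.28 and 8.50 in ICR wild type gallbladder, 9.80 and 9.20 in ICR Sox17+/-, 9.61 and 9.0 in cystic duct, 9.09 and 9.05 in B6 wild type and 9.39 and 8.99 in B6 Sox17+/- gallbladder. The sample with the lower number was higher in all of these pairs, and the gallbladder range was 1.31 log2 units. The difference between samples 2 and 1 in ICR was -0.67 (SE 0.12, limma adjusted p = 0.383 over 26443 probe sets) on this probe set and -0.10 (SE 0.10) on 1448694_at, the brighter one that reads the gene.

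Egr1 and Atf3 had a wider gallbladder range than Jun on 1448694_at, the probe set that reads the gene. On 1417409_at the Jun range was wider than that of either. Egr1, a zinc finger factor that answers growth factor signals, read 9.10 and 8.51 in ICR wild type gallbladder, 9.21 and 8.97 in ICR Sox17+/-, 9.36 and 9.38 in cystic duct, 8.20 and 8.32 in B6 wild type and 8.55 and 8.32 in B6 Sox17+/- gallbladder. The ICR samples were the higher ones, with a narrow overlap between 8.51 in ICR and 8.55 in B6. Atf3, a stress-induced factor of the CREB family, read 7.11 and 6.53, 7.27 and 7.06, 6.55 and 5.74, 6.60 and 6.87, and 6.91 and 6.99 in the same groups. Cystic duct sample 2 was the lowest for Atf3, and the other 9 samples lay between 6.53 and 7.27. Ier3, an early response gene that modulates cell survival, read 6.82 and 6.43, 7.43 and 6.78, 7.69 and 6.03, 6.94 and 7.17, and 7.33 and 6.61. The cystic duct pair held both the highest and the lowest Ier3 value. Dusp1 read 8.25 and 8.33, 8.88 and 8.49, 9.59 and 8.35, 8.61 and 8.65, and 9.01 and 8.58, highest in cystic duct sample 1.

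**Figure D1:**
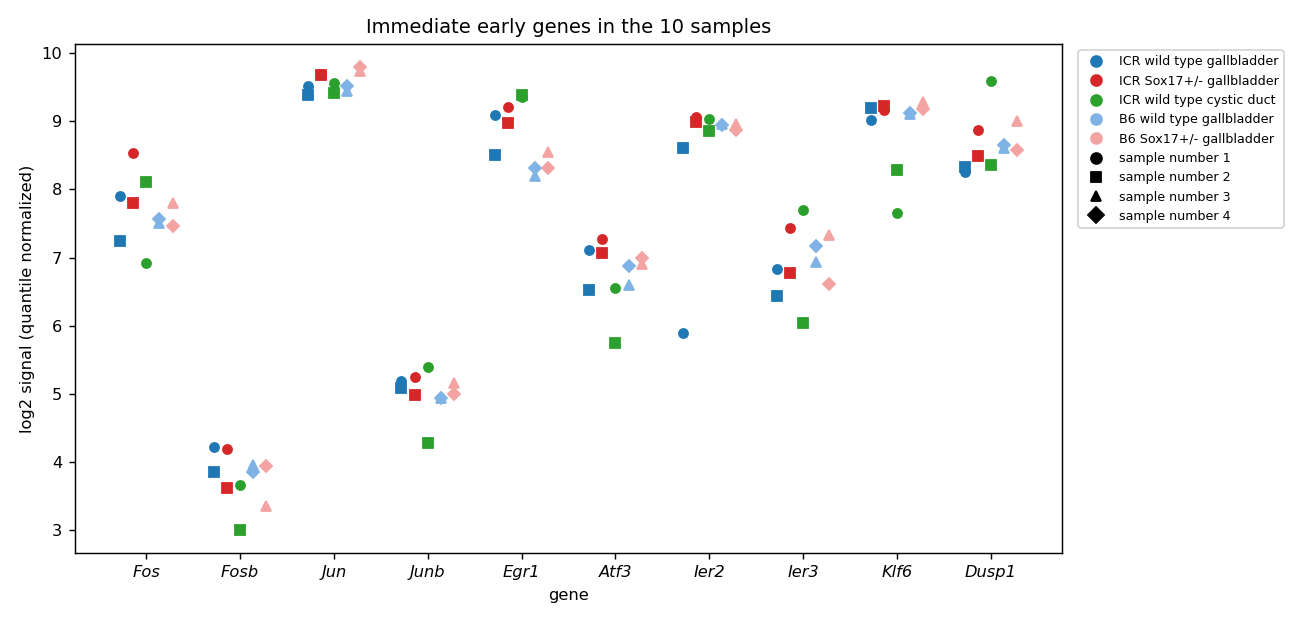
Log2 signal (y axis, quantile normalized) of each gene (x axis) in the 10 samples, read on 1 probe set per gene; colours give the group and shapes the sample number. The single point far below the rest is Ier2 in ICR wild type gallbladder sample 1, at 5.89, and the Klf6 points under 8.5 are the cystic duct pair.

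Ier2 stood apart in 1 sample. This nuclear early response gene read 5.89 in ICR wild type gallbladder sample 1 and 8.61 in sample 2, 9.06 and 8.99 in ICR Sox17+/-, 9.03 and 8.86 in cystic duct, 8.97 and 8.94 in B6 wild type and 8.96 and 8.87 in B6 Sox17+/- gallbladder. The low value was 2.72 log2 units, or 6.61-fold, under the lowest of the 7 other gallbladder samples, which lay within 8.61 to 9.06. On that array 459 of 14696 genes were over 1 log2 unit below all other gallbladder samples, against 0 to 31 on each of the other 7 arrays, and Ier2 ranked 92nd by size of the gap. Related genes, chosen after their values were seen, were low on the same array: Klf10, a TGF-beta-induced factor, by 2.27, Ccn2, a matrix-associated growth regulator, by 2.33, and Srf, which encodes serum response factor, by 1.21. The other 8 members tested did not show such a gap there. The 3' minus 5' signal of the Gapdh control probe sets was 0.60 on that array and ran from 0.00 to 0.93 over the 10. For the Actb control probe sets it was 0.56 on that array, the lowest of the 10, and 0.86 to 1.40 on the others. The part of either in the low values was not tested.

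Sox17 was read as a check of the genotype labels in gallbladder. It read 9.52 and 9.24 in ICR wild type gallbladder, 7.65 and 7.90 in ICR Sox17+/-, 9.29 and 9.04 in B6 wild type and 8.03 and 7.91 in B6 Sox17+/- gallbladder, lower in every Sox17+/- sample. The genotype difference was -1.40 (limma adjusted p = 0.0542), so Sox17 itself was not called. Wild type cystic duct also read low, at 8.28 and 7.63, and was called against gallbladder (-1.43, limma adjusted p = 0.00867).

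The first comparison asks whether loss of 1 Sox17 copy goes with a different immediate early level in gallbladder. None of the 9 genes passed between Sox17+/- and wild type gallbladder over both strains, where limma called 0.0544% of all genes tested. At an unadjusted p under 0.05 limma listed 1 of the 9, Jun, against 3.55% of all genes. All 9 differences were above 0, from 0.06 for Junb to 0.87 for Ier2, with a median of 0.26 against 0.00 (rounded) over all genes tested. Jun differed by 0.26 (95% interval 0.06 to 0.46, limma adjusted p = 1.00) and was the only member whose groups did not overlap in both strains, which 4.82% of all genes did in this direction. Within ICR alone, Dusp1, Ier2 and Jun were higher without overlap, against 17.9% of all genes, and within B6 alone Atf3, Jun, Junb and Klf6, against 20.4%. On its other probe set Jun differed by 0.37 (SE 0.23). Klf6 differed by -0.08 on 1418280_at and by 0.06 to 0.33 on the rest of its probe sets. Fosb, too dim to be tested, averaged 3.90 in ICR Sox17+/- and 4.04 in ICR wild type gallbladder, and 3.65 and 3.90 in B6. Its mean was thus the lower one in Sox17+/- gallbladder of both strains.

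The Ier2 difference rested on the low sample. It was 0.87 (95% interval -0.27 to 2.01) with all samples and 0.19 without ICR wild type gallbladder sample 1. Fos differed by 0.34 (interval -0.35 to 1.04), Atf3 by 0.28 (-0.23 to 0.80), Dusp1 by 0.28 (-0.32 to 0.87), Egr1 by 0.23 (-0.11 to 0.58), Ier3 by 0.20 (-0.66 to 1.05) and Klf6 by 0.10 (-0.23 to 0.43). These intervals reach 0.43 to 1.05 log2 units upward, so differences up to that size lie within them. Junb turned to -0.023 in the values as deposited. Leaving out ICR wild type gallbladder sample 2 made Ier2 a called gene, at 1.55 (limma adjusted p = 0.00125), with the low sample then standing alone for its group, in a fit that called 1.91% of all genes. The adjusted p of Ier2 ran up to 1.00 over its other alternatives.

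The Sox17+/- effect was not shown to differ between the strains for any member, with 0 of 9 called, as for all genes tested (0.00%), and 0 of 9 at an unadjusted p under 0.05, against 1.03% of all genes. The difference of effects, B6 minus ICR, was -1.81 for Ier2 (95% interval -4.09 to 0.46) and -0.45 without ICR wild type gallbladder sample 1. Without sample 2 it was -3.18 and passed (limma adjusted p = 0.00128), where 1.82% of all genes did. It was -0.51 for Fos (interval -1.89 to 0.88) and -0.56 for Ier3 (-2.27 to 1.15). Markers of other cell types differed among the same samples. Each list was read as the log2 of its summed signals, to which its brightest genes add most. For skeletal muscle this was 12.36 in B6 Sox17+/- sample 3 and 9.44 in sample 4, against 8.74 to 9.64 in the other gallbladder samples. For hepatocyte markers it ran from 14.61 to 15.01 in ICR wild type and 15.59 to 15.91 in ICR Sox17+/- gallbladder. The B6 wild type samples stood at 15.83 and 15.39 and the B6 Sox17+/- samples at 15.73 and 15.78, so these groups overlapped. In the genotype comparison 7300 of 14696 genes tested were above 0. So were 10 of 10 hepatocyte markers tested (median 0.82), 7 of 7 erythroid markers (median 0.44) and 8 of 8 skeletal muscle markers (median 1.22). The part of these markers in the member values was not tested. In whole tissue, fewer cells of a type and less RNA per cell cannot be told apart.

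**Figure D2:**
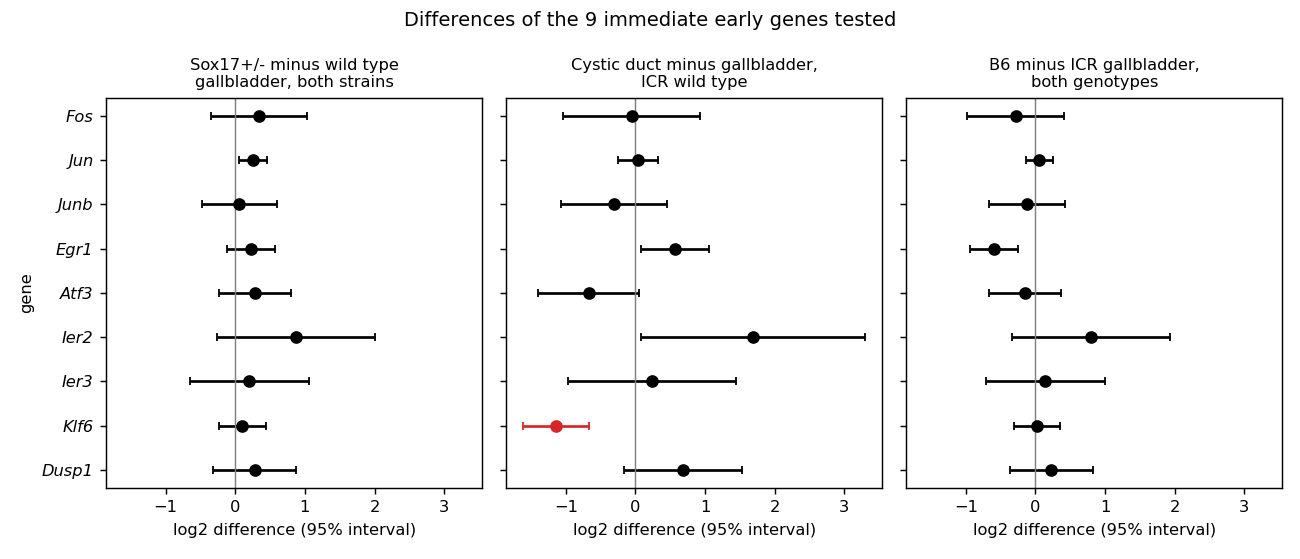
Log2 difference (x axis) with its 95% interval for each of the 9 genes tested (y axis) in 3 comparisons, from limma on all 10 samples; red marks an adjusted p under 0.05. The red point is Klf6 in cystic duct at -1.14, and Egr1 lies to the left of 0 between strains at -0.60.

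The second comparison sets cystic duct, the tube that drains the gallbladder, against gallbladder in ICR wild type embryos. Klf6, a zinc finger factor induced by injury and by growth signals, was the 1 member of 9 that passed. Limma called 14.3% of all genes tested here (5.73% higher, 8.61% lower), so 1 of 9 is near that share. At an unadjusted p under 0.05 it listed 3 of 9, against 31.7% of all genes. Its brightest probe set, 1433508_at, gave 9.01 and 9.20 in gallbladder and 7.66 and 8.28 in cystic duct, a fall of 2.20-fold (log2 -1.14, SE 0.20, limma adjusted p = 0.0115). Both cystic duct values lay under all 8 gallbladder values of this probe set, and 27.6% of all genes were lower in cystic duct than in ICR wild type gallbladder without overlap. Klf6 no longer passed when sample 2 of that gallbladder group was left out (-1.04, limma adjusted p = 0.0589), with the mean of the Klf6 probe sets (-0.81, adjusted p = 0.0800) and with array weights (adjusted p = 0.156), and the adjusted p ran from 0.000405 to 0.156 over the alternatives. The other 4 Klf6 probe sets gave -0.43 to -1.01, of which 0 passed when each was tested on its own and 10.1% of all probe sets did.

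The cystic duct samples differed from each other across the whole array. Their signals correlated at 0.90 over genes, against 0.97 to 1.00 in the gallbladder pairs (rounded), and the deposited log2 signals of sample 2 had an interquartile range of 2.89 against 3.51 to 3.90 in the other 9 samples. In this pair sample 2 minus 1 was -1.66 for Ier3, -1.24 for Dusp1, 1.19 for Fos, -1.12 for Junb and -0.81 for Atf3. Klf6 differed by 0.62, and Egr1 (0.03), Jun (-0.15) and Ier2 (-0.17) by less than the median absolute difference of all genes, 0.54. Both cystic duct samples lay above both gallbladder samples for Dusp1, Egr1 and Ier2, 3 of 9 members, and 21.7% of all genes did so. Egr1 differed by 0.57 (95% interval 0.08 to 1.05, limma adjusted p = 0.113) and Dusp1 by 0.68 (-0.16 to 1.53, limma adjusted p = 0.237). Ier2 differed by 1.70 (0.09 to 3.30, limma adjusted p = 0.141) and by 0.33 without ICR wild type gallbladder sample 1. Without sample 2 it was 3.06 and passed (limma adjusted p = 0.000271), where 7.57% of all genes did. Atf3 stood at -0.67 (-1.40 to 0.06, limma adjusted p = 0.186) and Fos at -0.05 (-1.04 to 0.93). Fos reads of 6.92 and 8.11 in cystic duct bracket the gallbladder values of 7.24 and 7.90. Without cystic duct sample 1, 3 members passed, with Junb at -0.87 and Atf3 at -1.08 beside Klf6, in a fit that called 51.3% of all genes. Without cystic duct sample 2, 2 passed, with Dusp1 at 1.30 beside Klf6, where 30.4% of all genes did. Jun turned from 0.04 to -0.33 in the values as deposited and to -0.22 with centring on medians.

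The related genes gave the wider view of this comparison. Of 40 further immediate early genes tested 1 rose and 6 fell in cystic duct, of 14 heat shock genes 1 rose and 4 fell, and of 12 genes of the unfolded protein and integrated stress responses 4 rose and 0 fell, against 842 higher and 1265 lower of 14696 genes. Fosl2, an AP-1 subunit, fell by 1.77 (SE 0.25, limma adjusted p = 0.00490), from 9.75 and 9.88 to 7.62 and 8.47. Ppp1r15a, the stress-induced phosphatase subunit also called GADD34, rose by 2.43 (SE 0.36, limma adjusted p = 0.00584), from 8.18 and 7.47 to 10.74 and 9.78. Klf4, a zinc finger factor of epithelium, fell by 2.20 (SE 0.43, limma adjusted p = 0.0154). Atf4, the main factor of the integrated stress response, rose by 0.65 (SE 0.11, limma adjusted p = 0.00969), the mitochondrial chaperone Hspd1 rose by 0.63 (SE 0.10, limma adjusted p = 0.00781), and the inducible chaperone Hspa1b fell by 0.95 (SE 0.19, limma adjusted p = 0.0161).

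Of the 20 related genes called, 5 passed in all 10 fits that left out 1 sample: Fosl2, Ppp1r15a, Atf4, Hspd1 and P4ha1, a collagen hydroxylase that answers hypoxia. With array weights limma called 0 of all genes in this comparison, so none of the 20 passed there. Klf4 lost its call without either ICR wild type gallbladder sample, and Hspa1b without sample 2. Of 22 upstream kinases, factors and feedback genes 0 rose and 2 fell, among them the kinase Rps6ka3 at -0.75, and of 14 hypoxia genes 1 rose and 1 fell. The count of further immediate early genes was 3 higher and 12 lower of 40 without cystic duct sample 1 (51.3% of all genes called), and 5 and 7 without sample 2 (30.4%). Without ICR wild type gallbladder sample 1 it was 1 and 2 (5.59%), and without sample 2 it was 2 and 1 (7.57%). Of the unfolded protein and integrated stress genes 1 rose in 7 of the 10 fits that left out 1 sample, and 1 to 6 over all of them. Of the heat shock genes 0 to 7 fell, with at most 1 in 6 of the 10 fits.

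Markers of other cell types moved with the same comparison. For 10 hepatocyte markers the log2 of the summed signal was 15.01 and 14.61 in ICR wild type gallbladder and 17.16 and 16.83 in cystic duct. Of the 10, 9 were called higher. For 8 erythroid markers this value was 12.17 and 11.47 against 14.54 and 13.25, and 5 of the 7 tested were called higher. For 10 leukocyte markers it was 13.10 and 12.64 against 14.34 and 14.04. Only 2 of these 10 were called higher, with 7 above 0 and 3 below (median 0.40). Smooth muscle markers fell, from 15.17 and 15.20 to 13.26 and 13.86, with 7 of 10 called lower. Their part in the member values was not tested. The ICR wild type gallbladder samples also enter the genotype, interaction and strain comparisons, so these results share them.

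The third comparison sets B6 against ICR gallbladder over both genotypes. By gene, 0 of 9 members passed, where limma called 1.35% of all genes, and 1 of 9 (Egr1) had an unadjusted p under 0.05, against 12.7% of all genes. Egr1 stood at -0.60 in B6 (95% interval -0.94 to -0.25, limma adjusted p = 0.115), which is 1.51-fold lower. With the 8 gallbladder samples alone Egr1 passed (limma adjusted p = 0.0452), in a fit that called 8.92% of all genes, and with array weights it passed too (limma adjusted p = 0.0153), with 10.9% called. It also passed without cystic duct sample 1 or 2 (limma adjusted p of 0.0450 and 0.0451), where 8.89% and 8.95% of all genes did, and without ICR wild type gallbladder sample 2 (limma adjusted p = 0.0233), where 3.89% did. Over its alternatives the adjusted p ran from 0.0153 to 0.444. The difference was -0.45 and -0.75 without ICR wild type gallbladder sample 1 or 2. The other members lay between -0.29 (Fos) and 0.80 (Ier2), and Ier2 stood at 0.12 without ICR wild type gallbladder sample 1 and at 1.48 without sample 2, where it passed (limma adjusted p = 0.00106). No member separated all B6 from all ICR gallbladder samples, against 12.5% of genes higher and 6.84% lower. Markers of other cell types differed between the strains as well. Of those tested, 9 of 10 leukocyte markers were above 0 in B6 (median 0.75, 1 called), as were 7 of 7 erythroid (median 0.68), 10 of 10 hepatocyte (0.47) and 8 of 8 skeletal muscle markers (0.62). Over all genes tested 8879 of 14696 were above 0. Of the last 3 lists 0 markers were called by limma, and 2, 2 and 0 had an unadjusted p under 0.05. For skeletal muscle the log2 of the summed signal was 8.85 and 8.85 in ICR wild type and 8.74 and 8.83 in B6 wild type gallbladder. It was 9.64 and 9.05 in ICR Sox17+/- and 12.36 and 9.44 in B6 Sox17+/- gallbladder. The part of these markers in the member values was not tested.

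The 5 Klf6 probe sets disagreed between the strains. On 1427742_a_at Klf6 read 9.68 and 9.53 in ICR wild type, 9.95 and 9.47 in ICR Sox17+/-, 7.0 and 6.69 in B6 wild type and 8.43 and 6.36 in B6 Sox17+/- gallbladder, with 8.49 and 8.69 in ICR cystic duct. All 4 ICR gallbladder values lay above all 4 B6 values, among which sample 3 of Sox17+/- was highest. On 1418280_at it read 8.04 and 8.03, 8.13 and 8.01, 6.85 and 7.01, and 7.20 and 6.26 in the same gallbladder groups, again without overlap between the strains. On 1433508_at the same samples read 9.01 and 9.20, 9.16 and 9.23, 9.11 and 9.12, and 9.28 and 9.18, with the strains mixed.

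Tested on its own, 1427742_a_at was lower in B6 (log2 -2.54, SE 0.39, limma adjusted p = 0.00971 over 26443 probe sets) and 1418280_at differed by -1.22 (SE 0.22, limma adjusted p = 0.0187), where 5.42% of all probe sets passed. The remaining 3 probe sets gave 0.02, -0.16 and -0.02. With 1 sample left out at a time the first stood between -3.06 and -2.02 and lost its call without ICR Sox17+/- sample 1 (limma adjusted p = 0.0606) or B6 wild type sample 4 (0.0571). The second stood between -1.45 and -0.99 and lost its call in 5 of the 10 fits, those without ICR wild type sample 1, either ICR Sox17+/- sample or either B6 wild type sample, with a limma adjusted p of up to 0.0922. The direction was the same with the values as deposited, at -2.66 and -1.34. The files used here do not hold the probe sequences, so whether the probes differ in the transcript or in the strain sequence they read was not tested.

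**Figure D3:**
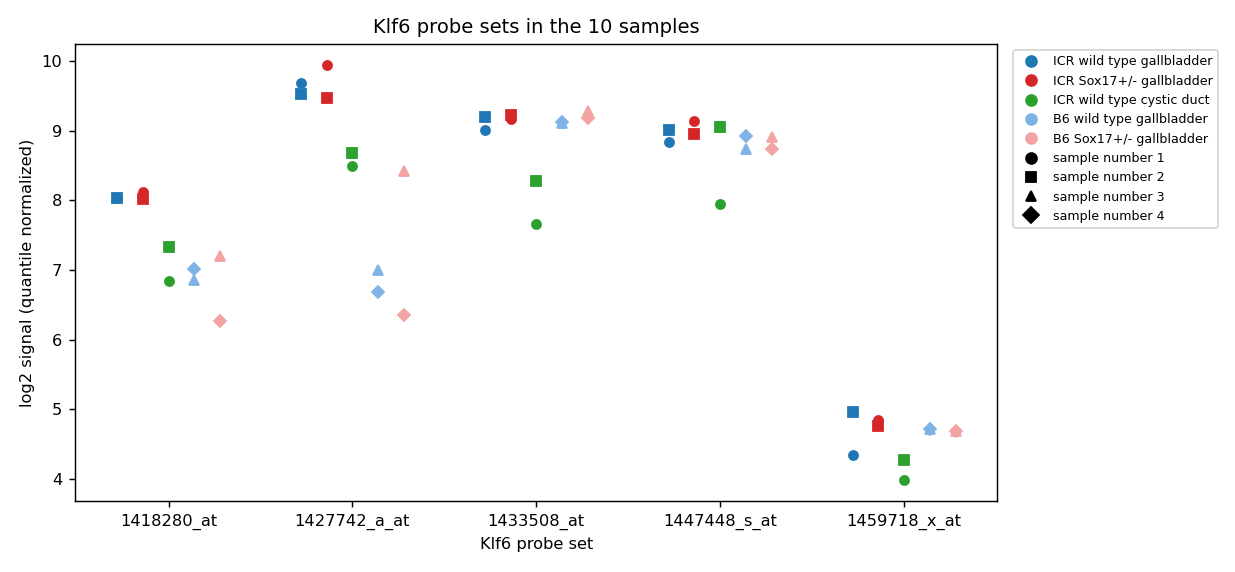
Log2 signal (y axis, quantile normalized) of the 5 Klf6 probe sets (x axis) in the 10 samples; colours give the group and shapes the sample number. On 1427742_a_at the ICR gallbladder points lie between 9.47 and 9.95 and the B6 points between 6.36 and 8.43, while on 1433508_at all gallbladder points lie between 9.01 and 9.28.

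The last comparison asks whether samples that carry the same number lay on the same side in every group. By limma 0 of 9 members passed between samples 2 and 1 of ICR, or between samples 4 and 3 of B6, and 0.00% of all genes did in either. At an unadjusted p under 0.05 limma listed 2 of the 9 in ICR, against 12.5% of all genes, and 0 in B6, against 0.653%. Atf3, Ier3, Jun and Junb were lower in sample 2 in all 3 ICR groups, 4 of 9 members, and 22.2% of all genes were so. Ier3 differed by -0.90 (95% interval -1.70 to -0.11) and Atf3 by -0.53 (-1.0 to -0.06), each with a limma adjusted p of 0.390.

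Within the ICR gallbladder groups alone, 6 of 9 members were lower in sample 2 in both, against 40.1% of all genes. Fos was lower by 0.66 and 0.72 there (differences of -0.66 and -0.72) and higher by 1.19 in cystic duct sample 2. In both B6 groups Atf3 and Jun were higher in sample 4, against 37.0% of all genes, and Ier2 and Junb lower, against 21.4%. The B6 wild type pair held 7 members above 0 and 2 below, and the Sox17+/- pair 2 above and 7 below. The median absolute difference of the 9 members was 0.07 in the B6 wild type pair, 0.15 in B6 Sox17+/-, 0.24 in ICR Sox17+/-, 0.39 in ICR wild type and 0.81 in cystic duct. Over all genes it was 0.10, 0.12, 0.19, 0.18 and 0.54. By this median the members differed most in cystic duct, the pair that also differed most over all genes.

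Cebpd, a further early gene that encodes a C/EBP factor, had the smallest p of all related genes in both strains. It read 8.51 and 7.97 in ICR wild type, 8.68 and 8.14 in ICR Sox17+/-, 8.10 and 7.25 in cystic duct, 8.76 and 8.15 in B6 wild type and 8.74 and 7.84 in B6 Sox17+/- samples. The lower number was the higher sample in every pair. Cebpd was picked by its p in these same comparisons, so this pattern adds no separate evidence. Of all genes, 22.2% were lower in sample 2 in all 3 ICR groups and 21.4% lower in sample 4 in both B6 groups. The difference was -0.64 (SE 0.14, limma adjusted p = 0.383) in ICR and -0.75 (SE 0.17, limma adjusted p = 1.00) in B6, and neither passed. Erythroid markers differed by a median of -1.04 between samples 2 and 1 in ICR and by 0.45 between samples 4 and 3 in B6. In ICR the median was -0.54 for leukocyte, -0.62 for hepatocyte and 0.38 for fibroblast markers, and in B6 it was -1.22 for skeletal muscle markers, with 8 of 8 below 0. The muscle difference came from the B6 Sox17+/- pair, where the log2 of the summed signal was 12.36 in sample 3 and 9.44 in sample 4. In the B6 wild type pair it was 8.74 and 8.83. The part of all these markers in the member values was not tested.

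**Figure D4:**
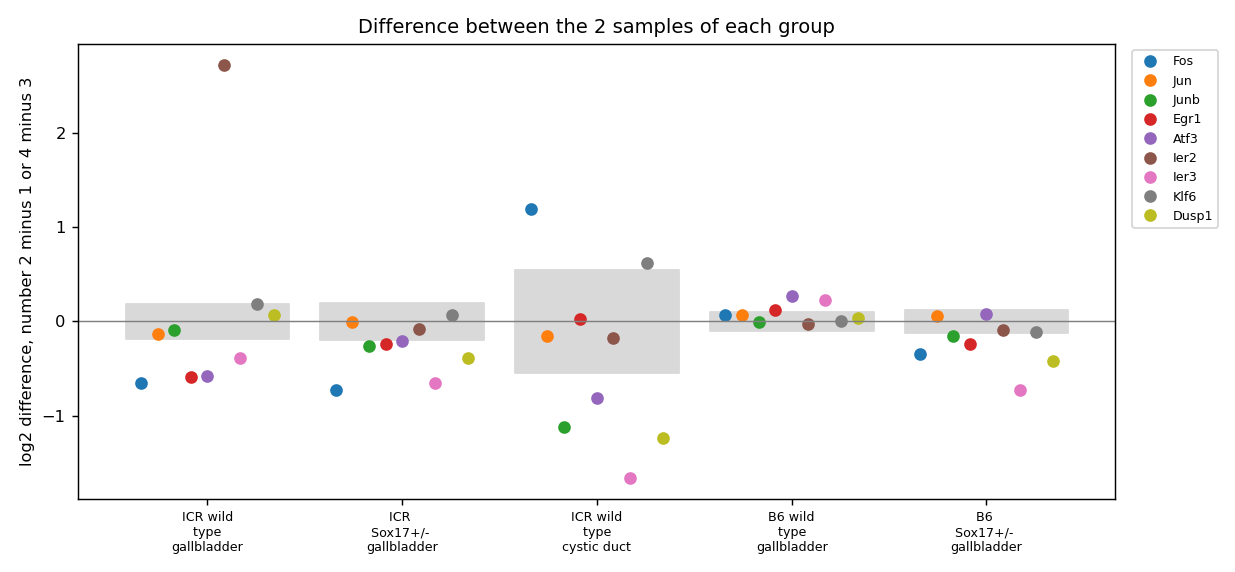
Log2 difference between the 2 samples of each group (y axis, sample 2 minus 1 in ICR and 4 minus 3 in B6) for the 9 genes tested, by group (x axis); the grey band is the median absolute difference over all genes, drawn on both sides of 0. The widest band is that of cystic duct, whose members lie between -1.66 and 1.19. The point at 2.72 is Ier2 in ICR wild type gallbladder, where the lowest member, Fos, lies at -0.66.

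Over the 8 gallbladder samples the members differed in spread, and for Klf6 and Jun the spread depended on the probe set. The standard deviation was 0.08 for Klf6 (on 1433508_at), 0.12 for Junb, which read near the limit for dim genes, and 0.15 for Jun (on 1448694_at). These lay below the median of 0.18 over all genes tested. On the probe sets 1418280_at and 1427742_a_at the standard deviation was 0.70 and 1.49 for Klf6, and on 1417409_at it was 0.37 for Jun. That of Atf3 and Dusp1 was 0.25, of Ier3 0.35 and of Egr1 and Fos 0.39, and that of Ier2 was 1.08 through its 1 low value. For the heat shock list the log2 of the summed signal ran from 14.61 to 14.85 over the 8 gallbladder samples, and for the further immediate early genes from 14.24 to 14.47.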

How the data were processed

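Biotin-labelled RNA was hybridized to Affymetrix arrays, per the labels. The authors deposited log2 signals per probe set for 10 samples; how they corrected background and normalized is not given in the sources used here. Of 45101 probe sets, 64 controls were left out, and by the platform annotation 34945 carry a single gene name, 932 more than 1 and 9160 no name. Each gene was read by its probe set with the highest mean, _x_at types only where no other was present. Sample medians ran from 5.51 to 6.07, so samples were quantile normalized, and genes under the 30th percentile of mean signal (4.47) were left out.

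A model with 1 mean per group, or with a further term for the sample number, was fitted with limma (version 3.58.1, R 4.3.3) and a mean-variance trend, on 5 and 3 residual degrees of freedom; p-values measure the spread between these samples. The steps were tested on simulated data. The alternatives were the values as deposited, median centring, other filters, other probe set rules, no trend, array weights, gallbladder samples only, a block by number and each sample left out. Named genes were the members, up to 3 per related list by p, and the 5 genes most like the members. The members, lists and tests were chosen with earlier results of these data known. The number of arrays limits the precision.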

Additional observations from a re-analysis of the deposited data

How the results depend on the processing

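The number of members called in cystic duct was 1, and 0 with the mean of probe sets and with array weights; with 1 sample left out it was 1 to 3. Between strains it was 0, and 1 with every probe set on its own, with array weights and with gallbladder samples only; with 1 sample left out it was 0 to 2. For the Sox17+/- effect, and for its difference between strains, it was 0 under all other settings and 0 to 1 with 1 sample left out, Ier2 being called without ICR wild type gallbladder sample 2. For both sample-number comparisons it was 0 throughout, and 0 to 0 with 1 sample left out. Of 513 member differences under settings that kept all samples of a comparison, 497 kept direction and call. These turned direction. For the Sox17+/- effect, Junb was -0.023 as deposited. For the difference of that effect between strains, Jun was -0.10 and Klf6 -0.11 with median centring, and -0.23 and -0.015 with the mean of probe sets. For cystic duct, Jun was -0.33 as deposited and -0.22 with median centring. Between strains, Jun was -0.028 and Klf6 -0.053 as deposited, and -0.0045 and -0.78 with the mean of probe sets. Between samples 4 and 3, Jun was -0.080 with the mean of probe sets.

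With 1 sample left out, these ranges crossed 0. For the Sox17+/- effect, Junb ran from -0.0071 to 0.12. For its difference between strains, Jun ran from -0.020 to 0.11, Egr1 from -0.41 to 0.18, Atf3 from -0.43 to 0.16 and Klf6 from -0.065 to 0.12. In cystic duct, Fos ran from -0.65 to 0.54, Jun from -0.038 to 0.11, Junb from -0.87 to 0.25 and Ier3 from -0.60 to 1.06. Between strains, Ier3 ran from -0.037 to 0.32 and Klf6 from -0.025 to 0.069. Between samples 2 and 1, Fos ran from -0.69 to 0.27 and Ier2 from -0.13 to 1.32. Between samples 4 and 3, Fos ran from -0.34 to 0.069, Egr1 from -0.23 to 0.12, Ier3 from -0.72 to 0.23, Klf6 from -0.11 to 0.0066 and Dusp1 from -0.42 to 0.037. The causes were not tested.

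The number of genes called moved with single samples: with the Sox17+/- effect it was 8, and 1 to 280 with 1 sample left out, with 78 for gallbladder samples only, 136 with array weights, 5 with no filter on dim genes, and 2 with every probe set on its own or with no trend; in cystic duct 2107, and 821 to 7539, with 0 by array weights; between strains 198, and 8 to 1316, with 1311 (gallbladder samples only), 1602 (array weights), 492 (mean of probe sets) and 1434 (each probe set); between samples 2 and 1 it was 0, and 17 with array weights. The numbers did not meet the criterion for pairing: the differences between same-numbered samples correlated across genes at 0.38, 0.09 and 0.07 among the ICR groups and 0.22 in B6. With the replicate block the counts of genes called were 1 for the Sox17+/- effect, 1720 in cystic duct and 192 between strains, and the counts of members called stayed at 0, 1 and 0.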

Other observations

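The mean pattern of the 9 members tested, each centred on its own mean over the 10 samples, was highest in ICR Sox17+/- gallbladder sample 1 (0.39) and lowest in cystic duct sample 2 (-0.28). ICR wild type gallbladder sample 1 stood at -0.24, and at 0.07 when Ier2 was left out of the mean. The 5 other genes whose centred signals lay nearest to this pattern over the 10 samples were Tmem219, Gsdma2, Lsm7, Bach2 and Cabp7, with root mean square differences of 0.09 to 0.10 log2 units.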
